A study of Mus musculus with 6 samples.

Results

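The calcium release and uptake genes described here are the 9 genes Ryr2, Ryr3, Atp2a2, Pln, Casq2, Cacna1c, Trdn, Jph1 and Jph2, of 33696 genes in the single-nucleus RNA sequencing tables of mouse left ventricle. They were taken by symbol, and all 9 were found. Their levels are given in cardiomyocyte nuclei, defined as nuclei in which Ttn and Myh6 together made up at least 0.8% of the UMIs (unique molecular identifiers, each counting 1 captured RNA molecule), and in mural nuclei, which are the pericyte-like and smooth muscle-like clusters around vessels. Of 46005 nuclei kept, 7274 were cardiomyocyte nuclei and 4822 were mural nuclei.

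The study asked how empagliflozin, an inhibitor of the sodium-glucose cotransporter SGLT2, acts on hearts with hypertrophic cardiomyopathy. WT-CD hearts were from wild-type littermates fed a control diet, R403Q-CD hearts from mice that carry the R403Q mutation in 1 copy of the cardiac myosin heavy chain gene Myh6 and ate the same diet, and R403Q-EMPA hearts from mutant mice fed that diet with empagliflozin at 0.15 mg per g, about 15 mg per kg body weight. All mice were male, and each group had 2 libraries. The labels give an age of 12 weeks at sequencing and a start of the diets at 9 to 10 weeks. These ages conflict with the longer feeding period that the labels also name, and how long the R403Q-EMPA mice had eaten empagliflozin when the nuclei were taken is uncertain. The labels do not say whether a library came from a single mouse, so p-values measure only the spread between these libraries.

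In a heart muscle cell, the L-type calcium channel lets in a small amount of calcium with each action potential, and this opens ryanodine receptors that release the much larger store of the sarcoplasmic reticulum. The junctophilins hold the cell membrane and the store close together, and triadin and calsequestrin tie the buffered calcium of the store to its release channel. The pump SERCA2a returns calcium to the store so that the muscle relaxes, and phospholamban slows that pump until it is phosphorylated. Pericytes and smooth muscle cells also use L-type channels and SERCA2, for vascular tone.

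The tables held 31787308 to 45397128 UMIs per library. Cardiomyocyte sums held 8572190 to 14604406 UMIs from 752 to 1648 nuclei per library, and mural sums came from 429 to 1330 nuclei. Libraries shared at most 0.489% of the barcodes of the smaller library. The 8 cardiomyocyte markers summed to 39783 to 48210 CPM (UMIs of a gene scaled to the total of its library and class) in cardiomyocyte nuclei, and 7 pericyte markers summed to 9875 to 12350 in mural nuclei. Of the cardiomyocyte nuclei, 474 (6.52%) lay in clusters of another name, and 229 nuclei had a Ttn and Myh6 share between 0.7% and 0.9%, near the chosen limit. WT-CD replicate 1 stood apart from the other libraries for several of the 9 genes, and values without it are given beside several of the results.

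The 9 genes differed in how far mural nuclei stood above endothelial nuclei, which should lack most of them and served as the background for RNA free in the suspension. Cacna1c in mural nuclei was at 21.8% to 25.8% of the cardiomyocyte level of the same library, against 0.419% to 0.896% in endothelial nuclei. Casq2 was at 27.4% to 60.4% in mural nuclei against 1.32% to 3.23% in endothelial nuclei, and Jph2 at 29.5% to 34.0% against 0.789% to 1.85%. Jph1 was at 6.89% to 15.2% against 1.11% to 4.18%. In each of these 4 genes the mural and endothelial ranges did not overlap.

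Ryr2, Pln and Trdn lay closer to the endothelial values. Ryr2 in mural nuclei was at 0.703% to 1.31% of the cardiomyocyte level against 0.571% to 0.910% in endothelial nuclei, Pln at 5.44% to 9.42% against 4.93% to 8.62%, and Trdn at 1.19% to 3.13% against 0.854% to 2.61%. For comparison, the giant sarcomere protein gene Ttn was at 1.09% to 2.17% in mural nuclei and 1.19% to 2.01% in endothelial nuclei. Ttn is part of the rule that picked cardiomyocyte nuclei, so these percentages are partly set by that rule. Actn2, a cardiomyocyte marker outside the rule, was at 1.40% to 2.62% in mural and 1.46% to 2.35% in endothelial nuclei. Tnni3, also outside it, was at 27.1% to 40.2% and 28.4% to 38.4%, so the background level differed between genes. Set against the same library, Pln and Trdn were higher in mural than in endothelial nuclei in 4 of 6 libraries and Ttn in 2 of 6. Over the mural class as a whole, Pln and Trdn were thus not told apart from the endothelial values. The 8 cardiomyocyte markers differed in this count, from 1 of 6 for Myh6, Tnnt2 and Myl2 to 3 of 6 for Actn2 and Tnni3 and 6 of 6 for Myom1, which was at 6.28% to 15.3% in mural against 0.910% to 1.65% in endothelial nuclei. Ryr2 was higher in mural nuclei in all 6 libraries, and so was Atp2a2, at 9.65% to 18.1% against 6.09% to 10.8%. These percentages are descriptions, because mural nuclei were taken from clusters.

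**Figure D1:**
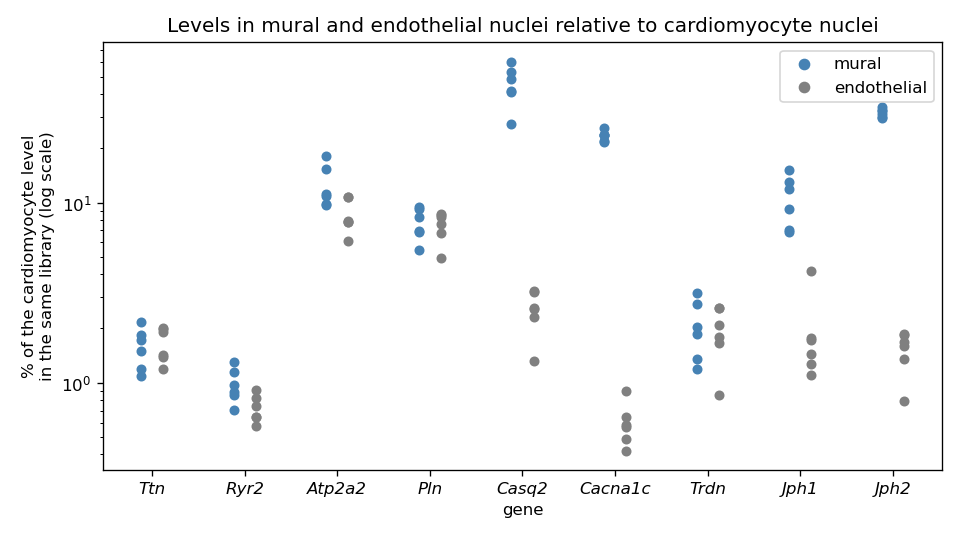
Level of each gene in mural nuclei (blue) and endothelial nuclei (grey) as a percentage of its level in cardiomyocyte nuclei of the same library, on a log scale, with 1 point per library. Cacna1c, Casq2, Jph1 and Jph2 had mural and endothelial ranges that did not overlap. Ryr2 and Atp2a2 were also higher in mural nuclei in all 6 libraries though their ranges overlapped, and Pln and Trdn were higher in 4 of 6.

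Shares of nuclei with a UMI were compared after each nucleus was thinned to 1000 UMIs. Cacna1c was seen in 86.2% to 96.2% of cardiomyocyte nuclei, in 81.4% to 87.1% of mural nuclei and in 3.85% to 7.05% of endothelial nuclei. Ryr2 was seen in 89.5% to 97.2% of cardiomyocyte nuclei, but in 7.75% to 12.7% of mural and 6.11% to 11.3% of endothelial nuclei. Without thinning, Cacna1c was seen in 92.7% to 97.3% and Ryr2 in 14.1% to 28.9% of mural nuclei.

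Within the mural class, Ryr2, Cacna1c, Jph2, Atp2a2 and Pln had higher mean levels in smooth muscle-like than in pericyte-like nuclei, and Trdn and Jph1, with 0 to 14 UMIs per library in smooth muscle-like nuclei, could not be ranked. Ryr2 was at 506 ± 124 CPM in smooth muscle-like nuclei (SD, n = 6 libraries), above the endothelial level in all 6 libraries. By group it was at 674 and 574 CPM (WT-CD), 585 and 373 (R403Q-CD) and 378 and 450 (R403Q-EMPA) there, from 38 to 99 UMIs per library, with both treated libraries below both WT-CD libraries. It was at 65.4 and 84.1 (WT-CD), 130 and 106 (R403Q-CD) and 147 and 173 (R403Q-EMPA) in pericyte-like nuclei, above the endothelial level in 4 of 6 libraries, and there both treated libraries were above both WT-CD libraries. Cacna1c was at 3335 ± 673 against 2328 ± 225 in pericyte-like nuclei, and Jph2 at 383 ± 69.4 against 158 ± 26.0. Pln was at 283 ± 58.6 against 160 ± 36.0. It was above the endothelial level in 6 of 6 libraries in smooth muscle-like nuclei and in 3 of 6 in pericyte-like nuclei. Casq2, at 262 ± 68.7 against 211 ± 28.8, differed by less than its spread in smooth muscle. In lymphatic endothelial nuclei, Ryr3 was at 48.4 ± 15.9 CPM and Jph1 at 78.6 ± 20.9. Ryr3 was higher there than in cardiomyocyte nuclei in 4 of 6 libraries, and the cardiomyocyte mean of 59.9 rests on R403Q-EMPA replicate 1.

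Across 60 sums (10 cell classes in 6 libraries), the single gene most like each member was mainly another member or a sarcomere gene, as Pearson's r on the log scale. Ryr2 was most like Pln (r = 0.94), Cacna1c was most like Jph2 (r = 0.96), Casq2 was most like Cacna1c (r = 0.93), Pln was most like Tnnt2 (r = 0.96, cardiac troponin T), and Trdn was most like Myoz2 (r = 0.96). Jph1 was most like Usp13 (r = 0.88), which is neither. Ryr3 had no close match among known calcium genes, its nearest being Gm56918 (r = 0.79). These sums share libraries and classes, so the values carry no p.

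RefSeq promoter sequences (build GRCm38.p6; the counts were made on GRCm39) were in hand for 5 of the 9 genes. Those of Pln and Casq2 are shown as the 250 bases before the start, with capitals marking motif matches on either strand. Over the mural class as a whole, Pln was near the endothelial level and Casq2 was far above it. In smooth muscle-like nuclei alone, Pln was above the endothelial level in 6 of 6 libraries. The Pln promoter, chr10:53337436-53337685 on the plus strand, held TATAAA and AGATAA (the latter on the other strand), and the Casq2 promoter, chr3:102086165-102086414 on the plus strand, held a MEF2 site.
Pln: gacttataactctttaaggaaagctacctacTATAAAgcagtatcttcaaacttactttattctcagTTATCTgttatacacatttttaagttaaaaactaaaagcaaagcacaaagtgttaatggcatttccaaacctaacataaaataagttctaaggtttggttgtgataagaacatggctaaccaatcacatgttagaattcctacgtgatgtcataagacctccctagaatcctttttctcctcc
Casq2: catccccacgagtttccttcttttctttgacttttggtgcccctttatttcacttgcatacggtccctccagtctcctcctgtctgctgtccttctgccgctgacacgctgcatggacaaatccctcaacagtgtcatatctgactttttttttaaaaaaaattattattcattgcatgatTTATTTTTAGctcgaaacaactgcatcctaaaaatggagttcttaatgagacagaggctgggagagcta
Of 32851 promoters of this length, 2.92% held a MEF2 site, 12.4% held TATAAA, 9.99% held AGATAA and 1.47% held a CArG box. None of these 4 motifs was found in the promoters listed for Ryr2, Cacna1c and Jph2. A match describes the letters only.

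In cardiomyocyte nuclei, none of the 9 genes passed the test (edgeR's quasi-likelihood test, Benjamini-Hochberg adjusted over all genes, adjusted p under 0.05) between any of the 3 pairs of groups. Of all 14685 genes tested, 0.0545% passed for R403Q-CD against WT-CD, 0.232% for R403Q-EMPA against R403Q-CD and 3.60% for R403Q-EMPA against WT-CD. At an unadjusted p under 0.05, the members counted 0, 1 and 1, where 7.01%, 12.4% and 18.7% of all genes did so. After scaling, 2, 3 and 3 members had groups that did not overlap, against 35.0%, 51.0% and 45.9% of all genes. These shares are near the background.

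The release channel Ryr2, the main calcium release channel of heart muscle, was at 10745 and 15566 CPM (WT-CD), 15294 and 14095 (R403Q-CD) and 13942 and 16787 (R403Q-EMPA). The low value was that of WT-CD replicate 1, and the groups overlapped. The log2 fold change of R403Q-CD against WT-CD was 0.11 (95% interval -0.61 to 0.84), and without WT-CD replicate 1 it was -0.19. For Ryr2 in R403Q-EMPA against WT-CD it was 0.16, and -0.15 without WT-CD replicate 1 and 0.54 without WT-CD replicate 2.

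Ryr3, a ryanodine receptor with low levels in adult heart muscle, had the widest spread of the 9 genes. It was at 2.10 and 25.1 CPM (WT-CD, from 18 and 222 UMIs), 15.4 and 41.8 (R403Q-CD, from 159 and 499 UMIs), and 228 and 46.8 (R403Q-EMPA, from 3335 and 546 UMIs). Both R403Q-EMPA libraries were above the other 4, and R403Q-EMPA replicate 1 was far above all others. The log2 fold change of R403Q-EMPA against WT-CD was 3.21 ± 0.92 (SE), with an adjusted p of 0.0958 by edgeR, and against R403Q-CD it was 2.22 ± 0.86, with an adjusted p of 0.337. Without R403Q-EMPA replicate 1 these were 1.72 and 0.73, with adjusted p of 0.489 and 0.869 by edgeR. Without WT-CD replicate 2 the first was 6.02, with an adjusted p of 0.0409.

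Ryr3 UMIs were gathered in few nuclei. Of 4779 Ryr3 UMIs in cardiomyocyte nuclei, 4470 (93.5%) were in cluster 19, a cluster built without the 9 genes. Ryr3 itself was first among the 10 leading genes of that cluster, and the natriuretic peptide genes Nppa and Nppb were among them. Cluster 19 held 4.44% and 3.19% of the cardiomyocyte nuclei (WT-CD), 8.77% and 16.0% (R403Q-CD) and 48.0% and 34.0% (R403Q-EMPA), and cluster 14 held 89.6% and 85.4%, 73.9% and 58.4%, and 28.3% and 54.7% in the same order. The mean Ryr3 level in cluster 19 was 217 ± 174 CPM (SD, n = 6 libraries), against 4.99 ± 5.87 in cluster 14, the largest cardiomyocyte cluster. Within cluster 19, Ryr3 was at 16.0 and 483 CPM (WT-CD), 124 and 196 (R403Q-CD) and 365 and 119 (R403Q-EMPA), so that the groups overlapped. The value of 483 came from 168 UMIs in 24 nuclei. Ryr3 was higher in nuclei with an Nppb UMI than in those without in 5 of 6 libraries, for example 415 against 41.0 CPM in R403Q-EMPA replicate 1 and 106 against 6.06 in R403Q-EMPA replicate 2. The exception was WT-CD replicate 2, at 1.52 against 31.8. The summed level of 5 atrial markers in cardiomyocyte nuclei, mostly Nppa, was 68.0 and 39.9 (WT-CD), 153 and 244 (R403Q-CD) and 1528 and 369 (R403Q-EMPA). In cardiomyocyte nuclei without a UMI of the atrial markers Myl7, Myl4 or Sln, the Ryr3 log2 fold change of R403Q-EMPA was 3.34 against WT-CD and 2.24 against R403Q-CD, with adjusted p of 0.0873 and 0.331 by edgeR, as large as in all cardiomyocyte nuclei. The part of Nppa was not tested.

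**Figure D2:**
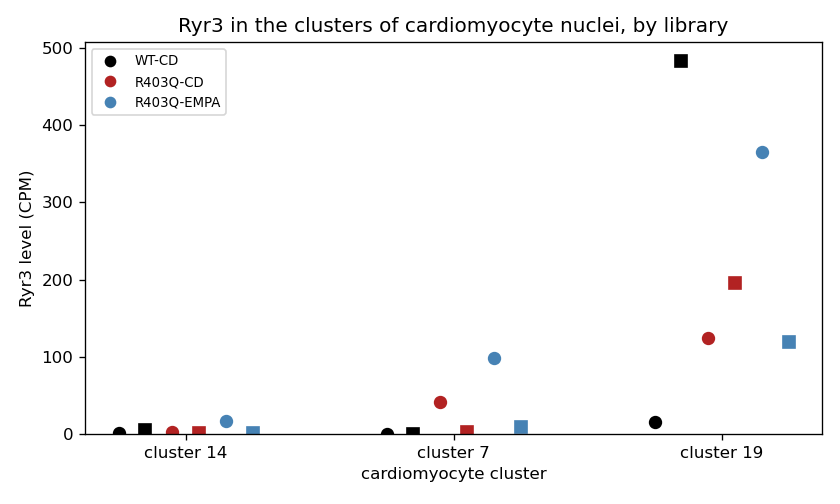
Ryr3 level in CPM in the 3 clusters of cardiomyocyte nuclei, with 1 point per library (circles, replicate 1; squares, replicate 2). Levels ran from 16.0 to 483 in cluster 19 and from 1.39 to 16.5 in cluster 14.

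Trdn and Casq2 are the partners of the release channel inside the store. Trdn (triadin) was at 2308 and 1894 CPM (WT-CD), 1800 and 1957 (R403Q-CD) and 1410 and 1815 (R403Q-EMPA), and R403Q-EMPA was below WT-CD in both libraries. Its log2 fold change for that pair was -0.42 ± 0.22 (SE), with an adjusted p of 0.327 by edgeR, and was -0.22 without R403Q-EMPA replicate 1 and -0.68 without R403Q-EMPA replicate 2. Casq2 (calsequestrin, the calcium buffer of the store) was at 384 and 579 (WT-CD), 433 and 470 (R403Q-CD) and 597 and 456 (R403Q-EMPA), and the groups overlapped. Its log2 fold change of R403Q-EMPA against WT-CD was 0.05, and -0.27 without WT-CD replicate 1 and 0.47 without WT-CD replicate 2.

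Cacna1c, the pore of the L-type channel, was at 8404 and 11831 CPM (WT-CD), 10487 and 10385 (R403Q-CD) and 10411 and 9951 (R403Q-EMPA). Jph1 was at 156 and 171 (WT-CD), 168 and 166 (R403Q-CD) and 168 and 168 (R403Q-EMPA). Its levels were the closest together of the 9 genes. Jph2, the junctophilin of heart muscle, was at 381 and 568 (WT-CD), 537 and 609 (R403Q-CD) and 634 and 549 (R403Q-EMPA). For R403Q-EMPA against WT-CD, the log2 fold change was -0.06 for Cacna1c (95% interval -0.72 to 0.59), -0.02 for Jph1 (-0.36 to 0.32) and 0.24 for Jph2 (-0.27 to 0.76). Without WT-CD replicate 1 these were -0.35 for Cacna1c, -0.16 for Jph1 and -0.08 for Jph2, and without WT-CD replicate 2 they were 0.29, 0.13 and 0.65.

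On the uptake side, Atp2a2 (SERCA2) was at 4214 and 3828 CPM (WT-CD), 3909 and 3980 (R403Q-CD) and 3206 and 3500 (R403Q-EMPA), so that both treated libraries were the lowest. The log2 fold change of R403Q-EMPA against WT-CD was -0.31 ± 0.22 (SE; 95% interval -0.80 to 0.17), with an adjusted p of 0.479 by edgeR. Within cluster 14 alone, Atp2a2 was at 4281 and 3946 CPM (WT-CD), 4073 and 4260 (R403Q-CD) and 3944 and 3903 (R403Q-EMPA), and within cluster 19 at 3506 and 2943, 3382 and 3196, and 2890 and 2984. The shares of the clusters in each group are those given for Ryr3, and their part in the Atp2a2 levels was not tested. Pln (phospholamban) was at 2753 and 1917 (WT-CD), 2174 and 2088 (R403Q-CD) and 1900 and 2327 (R403Q-EMPA). For Pln the log2 fold change of R403Q-EMPA against WT-CD was -0.18, and 0.01 without WT-CD replicate 1 and -0.36 without WT-CD replicate 2.

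The ratio of Pln to Atp2a2 UMIs, the brake against its pump, was 0.653 and 0.501 (WT-CD), 0.556 and 0.525 (R403Q-CD) and 0.593 and 0.665 (R403Q-EMPA). The log2 ratio of R403Q-EMPA minus R403Q-CD was 0.22 (two-sided exact permutation p = 0.333, the smallest that 2 against 2 can give), and that of R403Q-CD minus WT-CD was -0.08 (exact p = 1.0). That of R403Q-EMPA minus WT-CD was 0.13 (exact p = 0.667).

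**Figure D3:**
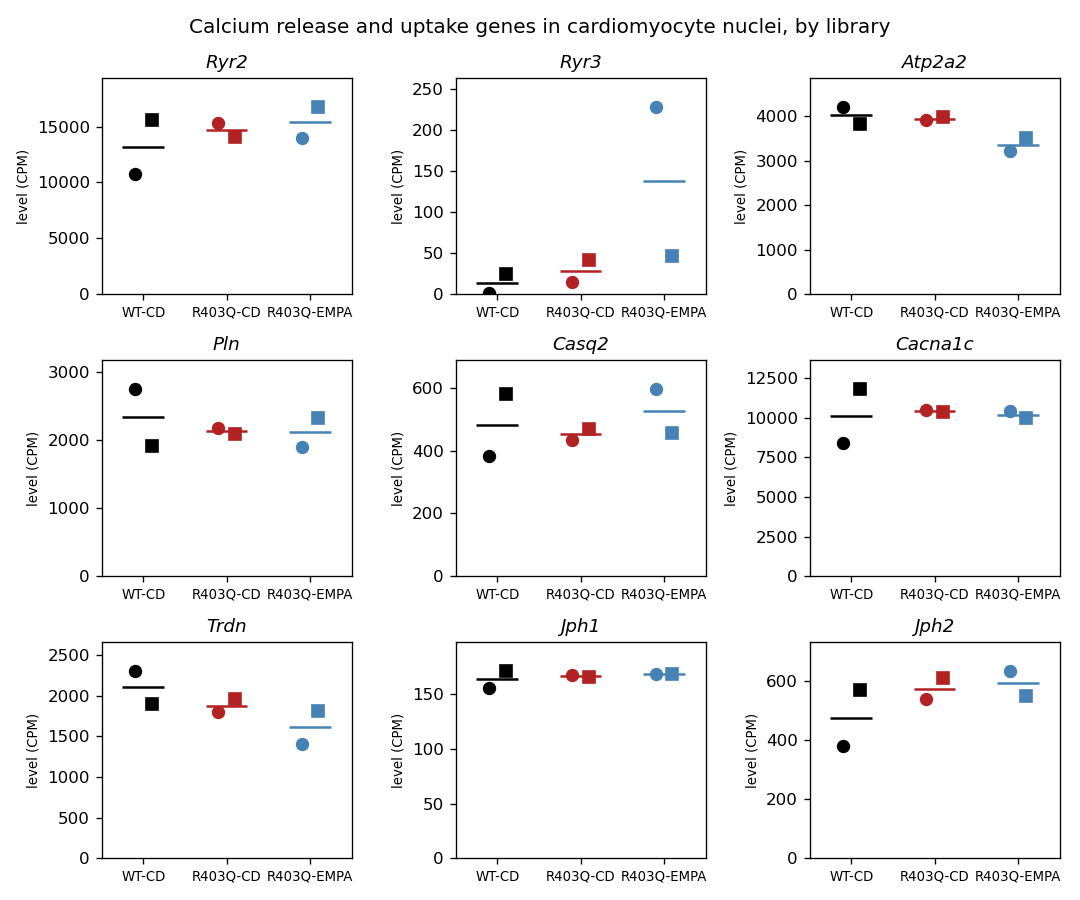
Level of each gene in cardiomyocyte nuclei in CPM, with 1 point per library (circles, replicate 1; squares, replicate 2) and lines at the group means. Ryr3 in R403Q-EMPA replicate 1 stood at 228, and Atp2a2 in both R403Q-EMPA libraries, at 3206 and 3500, was below the other 4.

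In mural nuclei, 8 of the 9 genes could be tested, since Ryr3 had 1 to 4 UMIs per library, at or near the limit of 3 counts that a value of 0 allows. Ryr2 rose in R403Q-EMPA against WT-CD over the class as a whole and in pericyte-like nuclei alone (log2 fold change 1.08, adjusted p = 0.00443 by edgeR), while its smooth muscle-like values, given above, were lower in the treated libraries and were not tested. No other member passed in any pair. Smooth muscle-like nuclei were 51 of 1330 and 41 of 928 mural nuclei (WT-CD), 30 of 802 and 33 of 746 (R403Q-CD), and 51 of 429 and 32 of 587 (R403Q-EMPA). The 7 pericyte markers summed to 12350 and 11386 CPM (WT-CD), 11129 and 11220 (R403Q-CD) and 9944 and 9875 (R403Q-EMPA). The part of this mix in the Ryr2 result was not tested beyond the pericyte-like fit. Of 12050 genes tested, 0% passed for R403Q-CD against WT-CD, 0.531% for R403Q-EMPA against R403Q-CD and 1.37% for R403Q-EMPA against WT-CD. At an unadjusted p under 0.05 the members counted 2, 2 and 3, against 3.27%, 9.70% and 12.3% of all genes. Groups did not overlap for 4 members in each pair, against 29.4%, 42.8% and 39.5% of all genes.

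Ryr2 in mural nuclei was at 95.6 and 110 CPM (WT-CD), 149 and 120 (R403Q-CD) and 183 and 192 (R403Q-EMPA), and the treated libraries were the highest. Its log2 fold change was 0.40 ± 0.16 (SE) for R403Q-CD against WT-CD, which did not pass the test. For R403Q-EMPA against R403Q-CD it was 0.45 ± 0.16, with an adjusted p of 0.340 by edgeR. The log2 fold change of R403Q-EMPA against WT-CD was 0.85 ± 0.16 (SE), with an adjusted p of 0.0205 by edgeR. In mural nuclei without a UMI of Ttn or Myh6 it was 0.27, with an adjusted p of 0.918. In endothelial nuclei Ryr2 was at 69.3 and 88.9 (WT-CD), 126 and 105 (R403Q-CD) and 127 and 108 (R403Q-EMPA). The 8 cardiomyocyte markers in mural nuclei summed to 1759 and 1397 CPM (WT-CD), 2110 and 2097 (R403Q-CD) and 2469 and 2322 (R403Q-EMPA), with the groups in the same order as for Ryr2, and their part in the Ryr2 result was not tested. On leaving out any R403Q-CD or R403Q-EMPA library the log2 fold change stayed at 0.79 to 0.92, with an adjusted p of 0.0540 to 0.0770 by edgeR.

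Atp2a2 in mural nuclei was at 457 and 370 CPM (WT-CD), 437 and 392 (R403Q-CD) and 579 and 536 (R403Q-EMPA), with a log2 fold change of 0.42 ± 0.15 against WT-CD and an adjusted p of 0.224 by edgeR. Atp2a2 was also above both WT-CD libraries in both treated libraries in endothelial nuclei, at 335 and 233 (WT-CD), 304 and 310 (R403Q-CD) and 343 and 377 (R403Q-EMPA), and in fibroblast-like nuclei, at 433 and 333, 388 and 386, and 540 and 549. In myeloid nuclei it was at 446 and 389, 381 and 419, and 507 and 540. Trdn was at 31.4 and 22.5 (WT-CD), 36.8 and 36.5 (R403Q-CD) and 38.6 and 56.8 (R403Q-EMPA), from 53 to 97 UMIs per library. Its log2 fold change of R403Q-EMPA against WT-CD was 0.81 ± 0.24, with an adjusted p of 0.146 by edgeR. That value was 1.10 without R403Q-EMPA replicate 1 and 0.48 without R403Q-EMPA replicate 2. Pln was at 188 and 104, 151 and 174, and 179 and 214 in the same order of groups. The treated libraries were above both WT-CD libraries for Atp2a2 and Trdn but not for Pln, and none of these genes passed the test.

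The 4 genes whose mural and endothelial ranges did not overlap showed no shared direction. Cacna1c was at 1992 and 2574 CPM (WT-CD), 2476 and 2457 (R403Q-CD) and 2687 and 2188 (R403Q-EMPA). Casq2 was at 232 and 241, 231 and 192, and 164 and 221, and Jph2 at 124 and 167, 173 and 181, and 215 and 170. Jph1, from 19 to 79 UMIs per library, was at 18.6 and 26.1 (WT-CD), 11.6 and 11.7 (R403Q-CD) and 21.8 and 15.4 (R403Q-EMPA). Jph1 had a log2 fold change of -0.93 for R403Q-CD against WT-CD with an adjusted p of 1.00 by edgeR, and Gm28376 overlaps it on the other strand.

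**Figure D4:**
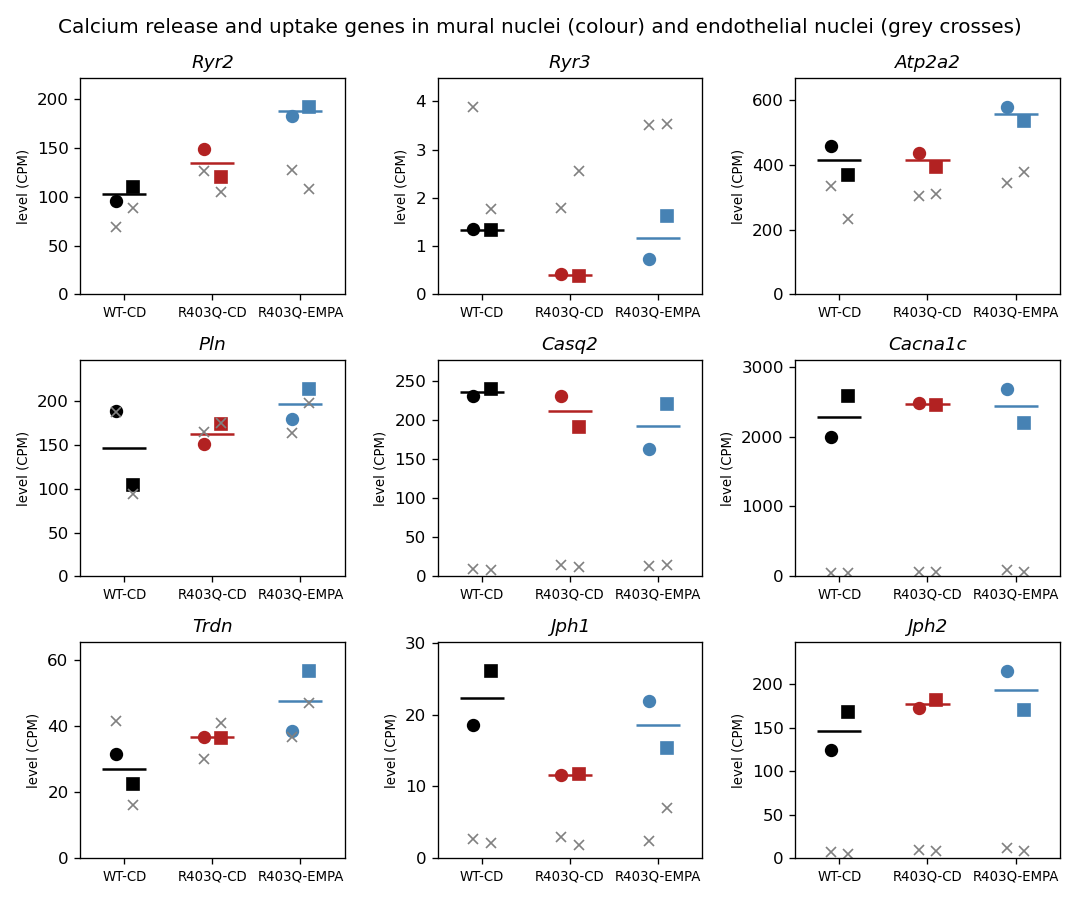
Level of each gene in mural nuclei in CPM, with 1 coloured point per library, lines at the group means, and endothelial nuclei of the same libraries as grey crosses. Ryr2 rose from 95.6 and 110 (WT-CD) to 183 and 192 (R403Q-EMPA). The endothelial values of the same treated libraries were 127 and 108, and they too were above both WT-CD endothelial values.

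A model with both classes tested whether a group effect differed between them, with the library as a block. Of 15063 genes, 0.146% passed for R403Q-CD against WT-CD, 0.651% for R403Q-EMPA against R403Q-CD and 1.68% for R403Q-EMPA against WT-CD. Trdn passed for the last pair, with an effect 1.27 lower on the log2 scale in cardiomyocytes (-1.27 ± 0.23, SE; adjusted p = 0.00496 by edgeR), and so did Atp2a2 (-0.77 ± 0.19; adjusted p = 0.0386 by edgeR). With only mural nuclei without a UMI of Ttn or Myh6, which leaves fewer nuclei, the difference was -1.20 for Trdn and -0.56 for Atp2a2, with adjusted p of 0.736 and 0.803 by edgeR. The cardiomyocyte effects were those given above, below 0 for both genes, and the mural ones above 0.

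**Figure D5:**
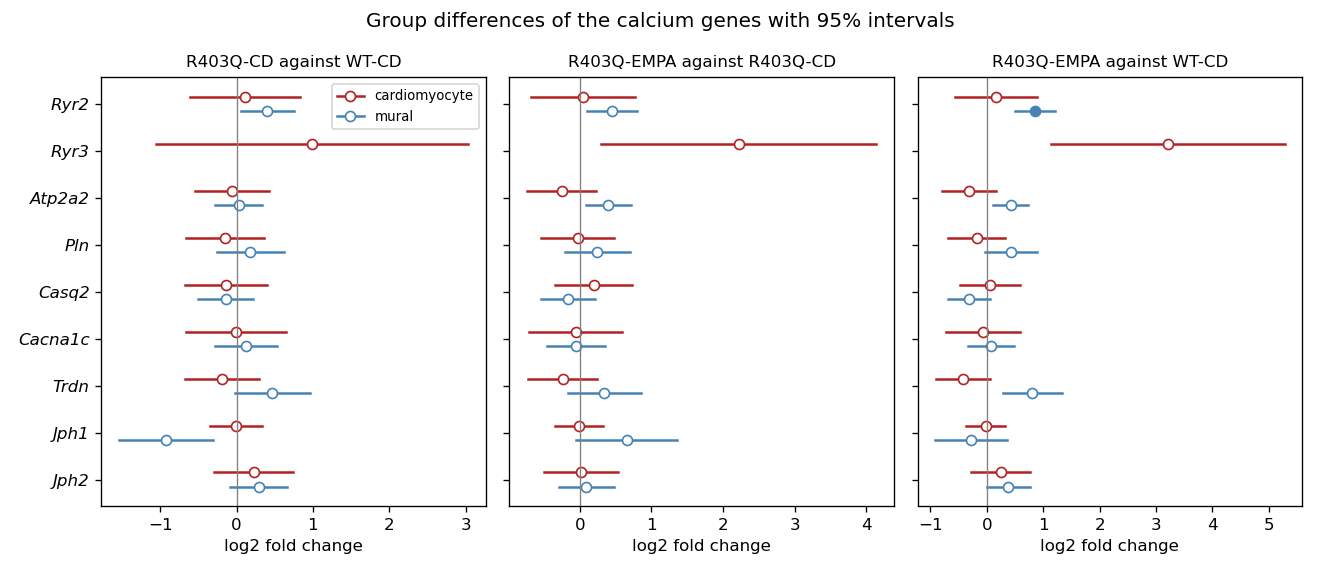
Log2 fold changes of the 9 genes with 95% intervals in cardiomyocyte nuclei (red) and of 8 genes in mural nuclei (blue), for the 3 pairs of groups. Filled points passed the test, which only Ryr2 in mural nuclei did, at 0.85 for R403Q-EMPA against WT-CD.

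Of 73 other genes of calcium handling, 60 were tested in cardiomyocyte nuclei and 57 in mural nuclei. In cardiomyocytes 0 passed for the first pair and 0 for R403Q-EMPA against R403Q-CD (5 and 9 at an unadjusted p under 0.05 by edgeR, where 7.01% and 12.4% of all genes did so), and 2 of 60 passed for R403Q-EMPA against WT-CD, a share near the 3.60% of all genes. S100a1, a calcium-binding protein that acts on SERCA2 and the ryanodine receptor, rose from 39.0 and 27.8 CPM in WT-CD to 65.0 and 55.9 (R403Q-EMPA) (log2 fold change 0.81 ± 0.16, SE; adjusted p = 0.0271 by edgeR). Camk2a, a calmodulin-dependent kinase, fell from 53.2 and 56.9 to 35.0 and 33.7 (-0.74 ± 0.15, adjusted p = 0.0276 by edgeR). Neither S100a1 nor Camk2a passed for R403Q-EMPA against R403Q-CD or for R403Q-CD against WT-CD. The part of the cluster shares given for Ryr3 in their levels was not tested. In mural nuclei, Cacnb4, a calcium channel beta subunit, and Akap7, an anchoring protein for protein kinase A, were lower in treated hearts, as 2 of 57 genes in each comparison where 0.531% and 1.37% of all genes passed. Cacnb4 was at 421 and 481 (WT-CD), 532 and 508 (R403Q-CD) and 268 and 290 (R403Q-EMPA) (-0.93 against R403Q-CD and -0.71 against WT-CD, adjusted p of 0.0118 and 0.0374 by edgeR). Akap7 was at 190 and 185, 188 and 197, and 117 and 121 (-0.73 and -0.67, adjusted p of 0.0395 and 0.0353 by edgeR).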

How the data were processed

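Nuclei of left ventricle were sequenced with 10x Genomics chemistry in 6 libraries. The authors deposited raw UMI counts per gene and barcode; the submitters' processing notes name Cell Ranger 8.0.1 and GRCm39. Members, lists and tests were chosen with earlier results of these data known.

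Barcodes with at least 500 UMIs, 300 genes and at most 5% mitochondrial UMIs were kept, and doublets were removed with scrublet per library. Nuclei were clustered with scanpy 1.11.5 (2000 variable genes without the members and the listed calcium genes, 30 components, 15 neighbours, Leiden resolution 1). Clusters were named from fixed markers. Counts were summed per library and class, filtered and TMM-scaled, and tested with edgeR 4.0.16 (quasi-likelihood, Benjamini-Hochberg), with the script checked on simulated data. Levels are CPM, raw sums scaled to the total of the library and class. Alternatives were DESeq2 1.42.0, other filters, scalings and definitions, and leaving out each library; those for the interaction test were added after seeing the data. All 9 members were named, and of the calcium list the genes that passed. The shared control libraries bar correlations between comparisons.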

Additional observations from a re-analysis of the deposited data

Results flagged for a closer look

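The effects of R403Q-EMPA against WT-CD on Trdn and Atp2a2 differed between cardiomyocyte and mural nuclei by the interaction test. The difference, cardiomyocyte minus mural, was -1.271 for Trdn and -0.7743 for Atp2a2 on the log2 scale. Trdn levels in mural and endothelial nuclei overlapped in range, and the summed cardiomyocyte markers in mural nuclei were higher in the treated libraries. For Atp2a2, both treated libraries were also above both WT-CD libraries in endothelial, fibroblast-like and myeloid nuclei. With only mural nuclei without a UMI of Ttn or Myh6, which leaves fewer nuclei, neither difference passed the test.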

How the results depend on the processing

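No paired analysis was possible because the labels give no replicate numbers within groups and mark no shared animal, litter or day. With 2 libraries a group, leaving out 1 leaves a lone library that is assumed to vary like the others.

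Counts of genes called in cardiomyocytes were 8 for R403Q-CD against WT-CD, and became 100 with DESeq2, 15 without TMM, 301 without a filter on low counts, 4 with a cut of 0.4%, 17 with a cut of 1.6%, 13 by clusters and 529 without a mitochondrial limit, and 0 to 15 on leaving out a library. For R403Q-EMPA against R403Q-CD, 34 became 210 with DESeq2, 5 without TMM, 623 without a filter and 54 without a mitochondrial limit, and 0 to 181 on leaving out a library. For R403Q-EMPA against WT-CD, 529 became 1413 without a filter and 1197 without a mitochondrial limit, and 89 (without R403Q-EMPA replicate 1) to 791. In mural nuclei, 0 for R403Q-CD against WT-CD became 22 without a filter, and 0 to 35 on leaving out a library. For R403Q-EMPA against R403Q-CD, 64 became 341 without a filter and 19 without nuclei holding Ttn or Myh6 UMIs, and 4 to 286. For R403Q-EMPA against WT-CD, 165 became 462 and 37 under the same settings, and 63 to 420. The cause was not tested. The setting without a mitochondrial limit also changed the doublet step, since the caller then marked 0.0% of R403Q-EMPA replicate 1 and the highest-scoring 10.1% were removed there instead, against 3.68% with the limit. Without the filter on low counts, Ryr3 in cardiomyocytes passed in all 3 pairs.

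The difference between classes was weaker for Atp2a2 at -0.5647 without nuclei holding Ttn or Myh6 UMIs and -0.6685 without a mitochondrial limit, and ran from -0.8484 to -0.5363 on leaving out a library. That of Trdn was -1.195 without such nuclei, and it also no longer passed the test there.

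Small cardiomyocyte log2 fold changes that did not pass the test changed sign. For R403Q-CD against WT-CD, Ryr2 was -0.07104 without a mitochondrial limit, and Cacna1c was 0.04476 without TMM, 0.01341 without a filter, 0.01871 with a cut of 1.6% and 0.02814 by clusters, and Jph1 was 0.02801, 0.005391, 0.007994 and 0.02827 under the same 4 settings. For R403Q-EMPA against R403Q-CD, Ryr2 was -0.007722 by clusters, Pln 0.02763 with a cut of 0.4%, Cacna1c 0.001756 with that cut and 0.06122 without a mitochondrial limit, Jph1 0.01166 without TMM, 0.05764 with a cut of 0.4% and 0.0686 without a mitochondrial limit, and Jph2 -0.001746 with a cut of 1.6% and -0.02615 by clusters. For R403Q-EMPA against WT-CD, Cacna1c was 0.009107 and Jph1 0.03967 without TMM. In mural nuclei without Ttn or Myh6 UMIs, R403Q-CD against WT-CD gave -0.005479 for Ryr2, -0.0774 for Atp2a2, -0.05805 for Pln and 0.1555 for Casq2.

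On leaving out a library, the cardiomyocyte ranges for R403Q-CD against WT-CD were -0.1904 to 0.5013 for Ryr2, -0.3201 to 0.0453 for Pln, -0.4671 to 0.2837 for Casq2, -0.289 to 0.3615 for Cacna1c, -0.1478 to 0.1482 for Jph1 and -0.09743 to 0.6368 for Jph2. For R403Q-EMPA against R403Q-CD they were -0.1552 to 0.2089 for Ryr2, -0.2446 to 0.144 for Pln, -0.06956 to 0.03139 for Jph1 and -0.05755 to 0.09573 for Jph2. For R403Q-EMPA against WT-CD they were -0.1468 to 0.5401 for Ryr2, -0.3981 to 0.01331 for Pln, -0.2744 to 0.469 for Casq2, -0.3498 to 0.2946 for Cacna1c, -0.1604 to 0.1297 for Jph1 and -0.07746 to 0.6499 for Jph2. The mural ranges were -0.0683 to 0.1288 for Atp2a2, -0.1399 to 0.6027 for Pln and -0.09793 to 0.3811 for Cacna1c for the first pair, -0.4262 to 0.06482 for Casq2, -0.176 to 0.06493 for Cacna1c and -0.05723 to 0.2258 for Jph2 for the second, and -0.1492 to 0.3304 for Cacna1c and -0.5475 to 0.05276 for Jph1 for the third. In mural nuclei without WT-CD replicate 1, Pln and Trdn also passed for R403Q-EMPA against WT-CD, and without WT-CD replicate 2, Jph2 did. The log2 ratio of Pln to Atp2a2 ran from -0.2743 to 0.1095 for R403Q-CD against WT-CD and from -0.05764 to 0.3261 for R403Q-EMPA against WT-CD.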

Other observations

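Over all kept nuclei, Myh6, the mutated myosin gene, was at 2340 and 2625 CPM (WT-CD), 3255 and 3196 (R403Q-CD) and 3579 and 4095 (R403Q-EMPA), and the share of nuclei that met the cardiomyocyte rule was 12.1% and 9.87%, 13.9% and 15.1%, and 20.5% and 25.7% in the same order. Without the 5% mitochondrial limit that share was 11.5% and 15.5% (WT-CD), 31.3% and 34.2% (R403Q-CD) and 35.5% and 28.4% (R403Q-EMPA), so that R403Q-CD and R403Q-EMPA overlapped.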
